A study of Sus scrofa with 6 samples.

Results

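Cells meet oxidants with a set of enzymes whose genes are switched by a small family of transcription factors. NRF2, the product of *NFE2L2*, is held in the cytoplasm and marked for degradation by KEAP1, a sensor with reactive cysteines, and enters the nucleus when KEAP1 is modified by electrophiles or oxidants. There it raises genes of glutathione synthesis, thioredoxin reduction, quinone reduction and haem breakdown. NRF1, the product of *NFE2L1*, sits in the membrane of the endoplasmic reticulum and is best known for raising proteasome genes when proteasome capacity falls. Superoxide dismutase and catalase act on the oxidants themselves, and working muscle, with its many mitochondria, is a steady source of these.

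The genes described here were the transcription factors *NFE2L1* and *NFE2L2*, the NRF2 sensor *KEAP1*, and the enzymes *HMOX1*, *NQO1*, *GCLC*, *GCLM*, *TXNRD1*, *SOD2* and *CAT*. They were taken by their pig Ensembl symbols from the gene counts. Of these 10 genes, 9 had counts among the 30476 genes of the table. *HMOX1*, the inducible haem oxygenase, was not analysed here. The study compared longissimus dorsi, a muscle of the back, of 3 pigs with a UCP1 knock-in meant to act in adipocytes (UCP1 KI, here KI1 to KI3) and of 3 wild-type pigs (WT1 to WT3), all aged 6 months and each giving 1 library. UCP1 is the proton carrier that lets brown fat burn fuel for heat, so the muscle fibres themselves are not the cells that the knock-in was aimed at. The promoter that drives the knock-in, the sex of the pigs and whether they were littermates are not given in the sources used here. The genotype labels were not checked against *UCP1*, which was not analysed here.

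Counts on genes summed to between 30220951 and 35066624 per pig, and were scaled by edgeR's TMM factors, which ran from 0.781 in WT2 to 1.18 in KI2. Values below are CPM, counts per 1000000 counts of each animal's TMM-scaled total. A count of 3, the limit that a count of 0 allows, was 0.0795 to 0.11 CPM, counting error alone. The 12 skeletal muscle fibre markers with counts (of 16 listed) summed to 77190 to 129800 CPM in KI animals and 105400 to 150200 CPM in WT animals. A gene was called when its unadjusted p from edgeR's quasi-likelihood test was under 0.05 and its log2 fold change (UCP1 KI against WT) was above 0.5 in size, the limits of the study. These limits were passed by 8.19% of the 13402 genes tested, 3.84% higher and 4.34% lower in KI animals. After Benjamini-Hochberg adjustment edgeR left 0 genes with an adjusted p under 0.05, where 1100 had an unadjusted p under 0.05 and DESeq2 on the same genes gave 127 with an adjusted p under 0.05. In these bulk samples, fewer cells of a type and less RNA per cell cannot be told apart.

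All 9 genes with counts passed the filter on low counts. *SOD2* and *NFE2L1* passed both limits, and both rose in KI animals, so that 2 of 9 genes were called beside 8.19% of all genes. The other 7 did not pass. The fold change was above 0 for 7 of the 9 genes, with a median log2 fold change of 0.47, beside -0.02 over all genes tested. *SOD2*, *NFE2L1* and *TXNRD1* were higher in every KI animal than in every WT animal, where 7.59% of all genes tested were (7.69% were lower in every KI animal). With libraries scaled by their totals alone (library size only), and without WT3, *KEAP1* and *TXNRD1* passed as well, 4 of 9, beside 8.39% of all genes and 1541 of 13864 genes, and without KI2, KI3 or WT2 *SOD2* alone passed, beside 4.92%, 8.33% and 5.19%. The share of all genes was 6.74% without KI1, 7.84% without WT1, 8.31% with the replicate number as a block, and 9.77% by DESeq2 on the same genes or 6.92% on all genes with any count, and in these fits 2 of the 9 passed, *SOD2* and *NFE2L1*, except that with the block they were *SOD2* and *KEAP1*. None of the 9 had an adjusted p under 0.05, by edgeR or by DESeq2.

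**Figure D1:**
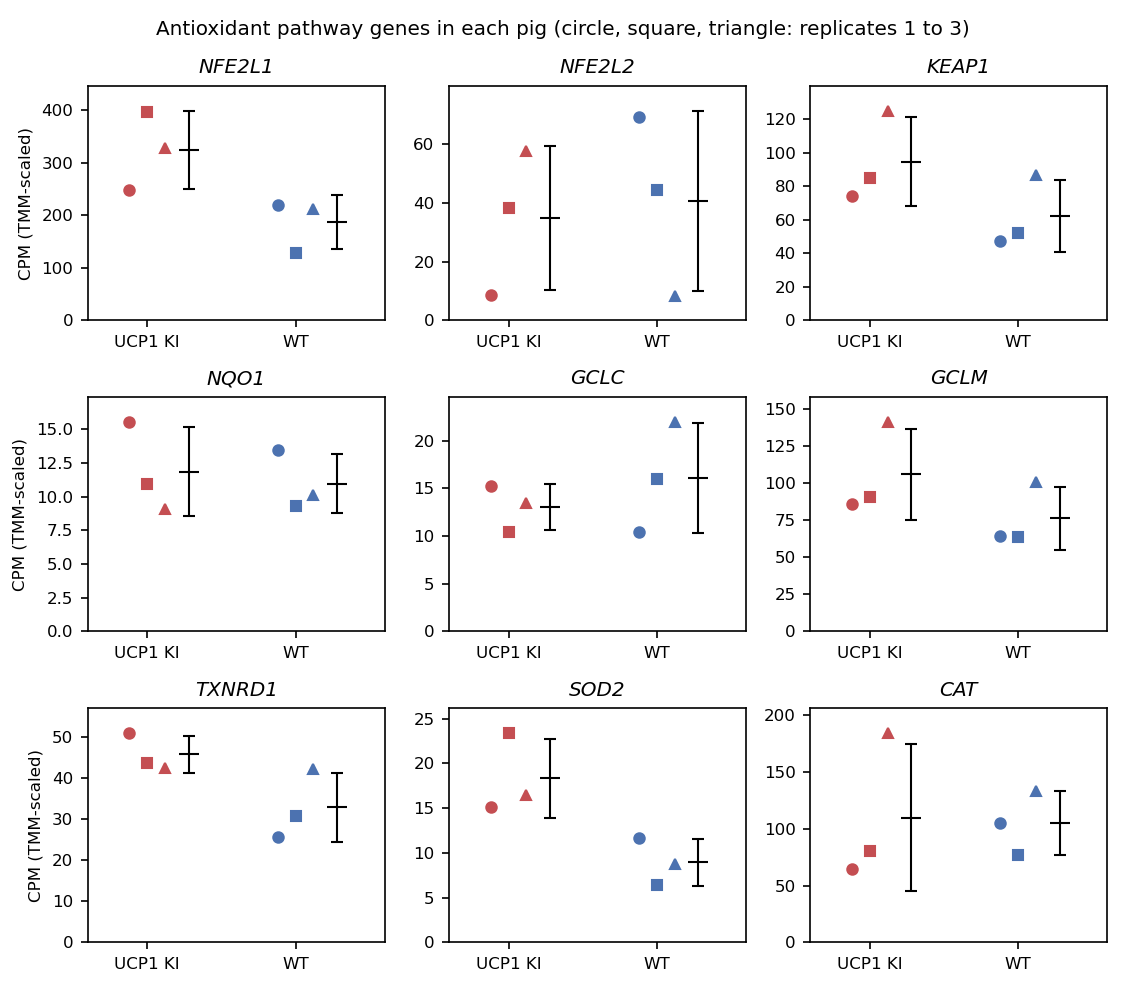
CPM of the 9 genes in each pig (points; red for UCP1 KI, blue for WT), with the mean and SD of each group of 3 pigs in black. *NFE2L1*, *TXNRD1* and *SOD2* do not overlap between the groups, and *NFE2L2* runs from 8.14 to 69.05 CPM within the WT animals alone.

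*NFE2L1* (ENSSSCG00000017525) lies on chromosome 12 at 24303381 to 24316765 of Sscrofa11.1. It was measured at 249, 396 and 328 CPM in KI1 to KI3 and at 219.5, 129 and 213 CPM in WT1 to WT3. Every KI animal was above every WT animal, although KI1 lay close to WT1. KI animals averaged 324 ± 73.7 CPM (SD, n = 3) and WT animals 187 ± 50.4 CPM (SD, n = 3), 1.73-fold apart, or 0.79 as a log2 fold change (standard error, SE, 0.31). By edgeR its unadjusted p was 0.0361 and its adjusted p 0.602. The call rested on single pigs. The log2 fold change was 0.61 without KI2, 0.78 without KI3 and 0.58 without WT2, and in these fits *NFE2L1* missed the p limit (unadjusted p of 0.116, 0.0686 and 0.113 by edgeR). With the replicate number as a block it was 0.80, and the p limit was also missed (unadjusted p = 0.0651 by edgeR).

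*NFE2L2* (ENSSSCG00000015987; chromosome 15, 82967485 to 83146185) showed another picture, a wide spread in both groups. KI1 to KI3 had 8.67, 38.3 and 57.45 CPM, and WT1 to WT3 had 69.05, 44.1 and 8.14 CPM. A low pig was thus present in each group, KI1 and WT3, and the groups overlapped fully. The highest pig exceeded the lowest by 6.63-fold within KI and by 8.48-fold within WT. The within-group SD of log2(CPM + 1) was 1.46, at percentile 99.1 of all genes tested, whereas that of *NFE2L1*, 0.385, was at percentile 61.0. Counts behind these values were 268, 1364 and 2169 in KI animals and 2505, 1208 and 244 in WT animals, far above the limit of the depth. The log2 fold change of -0.22 had a 95% interval from -2.13 to 1.69 (adjusted p = 0.952 from edgeR), so that the data do not narrow the difference to either side. The sign turned when libraries were scaled by size alone (0.062), when KI1 was left out (0.25) and when WT1 was left out (0.38).

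In the RefSeq annotation the span of *NFE2L2* overlaps those of 2 other genes, *HNRNPA3* and *AGPS*, and the strand setting of the counting is not stated. *AGPS*, a gene of ether lipid synthesis, had counts of 244, 622 and 741 in KI animals and 483, 249 and 444 in WT animals. *HNRNPA3* was not analysed here. *AGPS* and *NFE2L2* both had their lowest KI count in KI1 and their highest in KI3, and both were highest of the WT animals in WT1, whereas the lowest was WT2 for *AGPS* and WT3 for *NFE2L2*. The part of reads from the overlapping genes in the counts of *NFE2L2* was not tested. No RefSeq gene overlapped the spans of the other 8 genes.

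*KEAP1* (ENSSSCG00000023667; chromosome 2, 69280940 to 69290267), which presents NRF2 to the CUL3 ubiquitin ligase, was at 74.25, 84.8 and 125 CPM in KI animals and at 47.5, 52.3 and 86.8 CPM in WT animals. WT3 lay above KI1 and KI2. At 0.61 (SE 0.33, 95% interval -0.15 to 1.37), its log2 fold change had an unadjusted p of 0.103 and an adjusted p of 0.654 by edgeR. It passed both limits without WT3, at 0.93, and in the fit blocked by replicate number, at 0.62 (unadjusted p = 0.0269 by edgeR). Counts of *NFE2L1* per count of *KEAP1*, a ratio within each library that needs no scaling, were 3.35, 4.67 and 2.63 in KI animals and 4.62, 2.46 and 2.45 in WT animals. This ratio overlapped between the groups (two-sided exact permutation test, p = 0.5, where 0.1 is the smallest p that 3 pigs against 3 allow).

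Glutathione, the main small thiol of the cell, is made in 2 steps, the first by glutamate-cysteine ligase. *GCLC* (ENSSSCG00000001488; chromosome 7, 27209565 to 27253535) encodes its catalytic subunit and *GCLM* (ENSSSCG00000037549; chromosome 4, 123371198 to 123390130) its modifier subunit. *GCLC* was at 15.3, 10.5 and 13.5 CPM in KI animals and at 10.4, 16.0 and 22.0 CPM in WT animals, with WT3 the highest. *GCLM* was at 85.6, 90.8 and 141 CPM against 64.2, 63.3 and 101 CPM, with KI3 the highest. Their fold changes had opposite signs and neither gene passed the limits. The log2 fold change was -0.30 for *GCLC* (95% interval -1.06 to 0.45) and 0.47 for *GCLM* (95% interval -0.24 to 1.19), and edgeR gave them adjusted p values of 0.818 and 0.701. Counts of *GCLM* per count of *GCLC* were 5.60, 8.68 and 10.5 in KI animals and 6.16, 3.97 and 4.60 in WT animals. The means of this ratio were 8.25 ± 2.47 (SD, n = 3) and 4.91 ± 1.13 (SD, n = 3), and KI1 fell below WT1 (exact permutation test, p = 0.2). With each pig left out, the log2 fold change of *GCLC* lay between -0.54 and -0.01 and that of *GCLM* between 0.21 and 0.73.

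*TXNRD1* (ENSSSCG00000000843; chromosome 5, 80170334 to 80213889), the cytosolic selenoenzyme that reduces thioredoxin, was the steadiest of the genes without overlap. It was at 51.0, 43.8 and 42.6 CPM in KI animals and at 25.8, 30.8 and 42.1 CPM in WT animals. The lowest KI animal and the highest WT animal were nearly level. KI animals averaged 45.8 ± 4.53 CPM (SD, n = 3) and WT animals 32.9 ± 8.37 CPM (SD, n = 3). The difference of 0.48 on the log2 scale (SE 0.25) was under the fold limit, with an unadjusted p of 0.0970 and an adjusted p of 0.652 by edgeR. It passed both limits without WT3, at 0.70.

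*NQO1* (ENSSSCG00000002754; chromosome 6, 17292962 to 17302593), a quinone reductase widely used as a readout of NRF2, overlapped between the groups. It was at 15.5, 10.9 and 9.11 CPM in KI animals and at 13.45, 9.28 and 10.1 CPM in WT animals, with replicate 1 the highest in each group. Its log2 fold change was 0.11 (95% interval -0.57 to 0.79, adjusted p = 0.927 from edgeR), and -0.13 without KI1. The interval leaves room for changes past the fold limit in either direction.

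*SOD2* (ENSSSCG00000040317; chromosome 1, 7679352 to 7689564) encodes the manganese superoxide dismutase of the mitochondrial matrix, which turns superoxide into hydrogen peroxide. It was at 15.1, 23.4 and 16.5 CPM in KI animals and at 11.7, 6.46 and 8.74 CPM in WT animals. The groups did not overlap, and KI2 was the highest. KI animals averaged 18.3 ± 4.43 CPM (SD, n = 3), 2.04-fold the 8.965 ± 2.62 CPM (SD, n = 3) of WT animals, or 1.03 as a log2 fold change (SE 0.31). By edgeR the unadjusted p was 0.0111 and the adjusted p 0.583. *SOD2* passed both limits with each pig left out in turn, between 0.81 without KI2 and 1.26 without WT1.

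Leukocytes also hold *SOD2*, and their markers were read beside it. The 12 macrophage and leukocyte markers summed to 111, 178.5 and 48.5 CPM in KI animals and to 65.9, 127 and 50.2 CPM in WT animals, overlapping between the groups. Of 11 tested, 1 marker, *ITGAM*, passed both limits, higher in KI animals, and *LYZ* was at 0 in every pig. KI2 was highest for these markers and for *SOD2*, but KI3 had the lowest marker sum and a *SOD2* level above every WT animal. The part of these cells in the result was not tested.

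*CAT* (ENSSSCG00000013302; chromosome 2, 26493664 to 26533881), the peroxisomal catalase that breaks down hydrogen peroxide, was at 64.6, 80.7 and 184 CPM in KI animals and at 105, 77.1 and 133 CPM in WT animals. KI1 and KI3 were the lowest and the highest of all pigs. The log2 fold change of 0.06 (95% interval -0.93 to 1.06, adjusted p = 0.976 from edgeR) turned to -0.53 without KI3 and to -0.12 without WT2. Catalase is abundant in red blood cells. The 5 red blood cell markers with counts (of 8 listed) summed to 76.5, 11.6 and 73.6 CPM in KI animals and to 106, 108 and 181 CPM in WT animals. This sum, most of it *HBB*, was lower in every KI animal, as were *HBB*, *AHSP* and *HBM*, while *ALAS2* overlapped between the groups. Of the markers, 1 of 4 tested (*HBM*) passed both limits, lower, and *HBB* did not pass (unadjusted p = 0.0795 by edgeR). The part of these cells in the level of *CAT* was not tested.

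**Figure D2:**
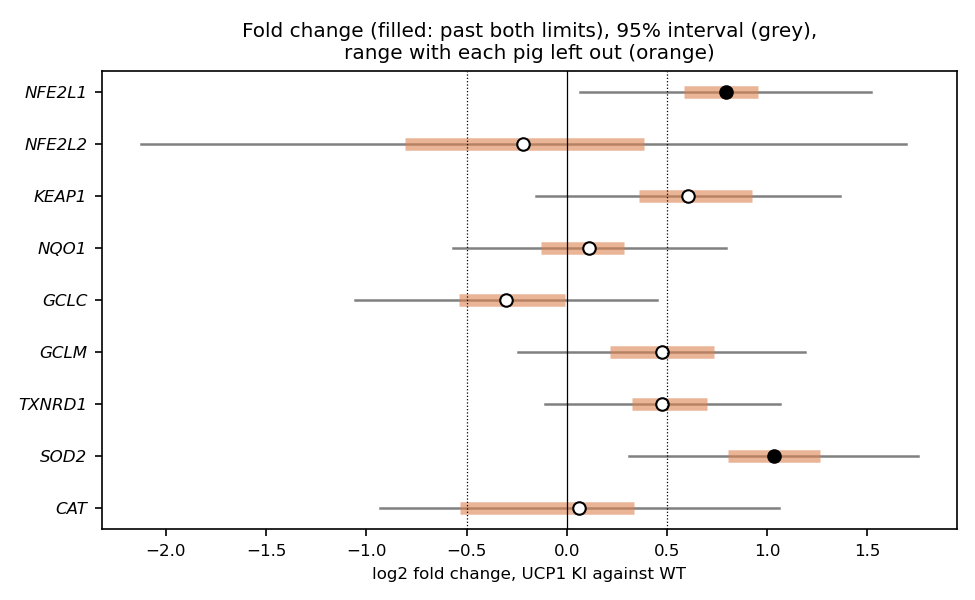
Log2 fold change of the 9 genes, UCP1 KI against WT, from edgeR (points, filled where both limits were passed), with the 95% interval in grey and the range with each pig left out in orange. *SOD2* and *NFE2L1* have intervals above 0, and that of *NFE2L2* runs from -2.13 to 1.69.

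The pathway was then described beyond these genes with 114 other genes, grouped by role, of which 99 had counts and 94 were tested. Of these, 13 rose and 4 fell in KI animals past both limits and 77 did not pass. The share past both limits was 18.1%, beside 8.19% of all genes tested. The median log2 fold change was 0.19, beside -0.02, with 63 genes above 0. The groups did not overlap for 22 of the 94 genes (23.4%), beside 15.3% of all genes. After adjustment, edgeR left 0 of the 94 genes with an adjusted p under 0.05 (17 had an unadjusted p under 0.05), and DESeq2 on the same genes left 4, *DPP3*, *UBXN4*, *GSS* and *EPHX1*. With library size only, the log2 fold changes of all genes shifted up by a median of 0.255, and 21 pathway genes were called higher and 2 lower, as were 929 (6.93%) and 195 of all genes, in place of 515 and 582. Without WT2, 10 pathway genes passed both limits, beside 5.19% of all genes, in place of 8.19%.

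**Figure D3:**
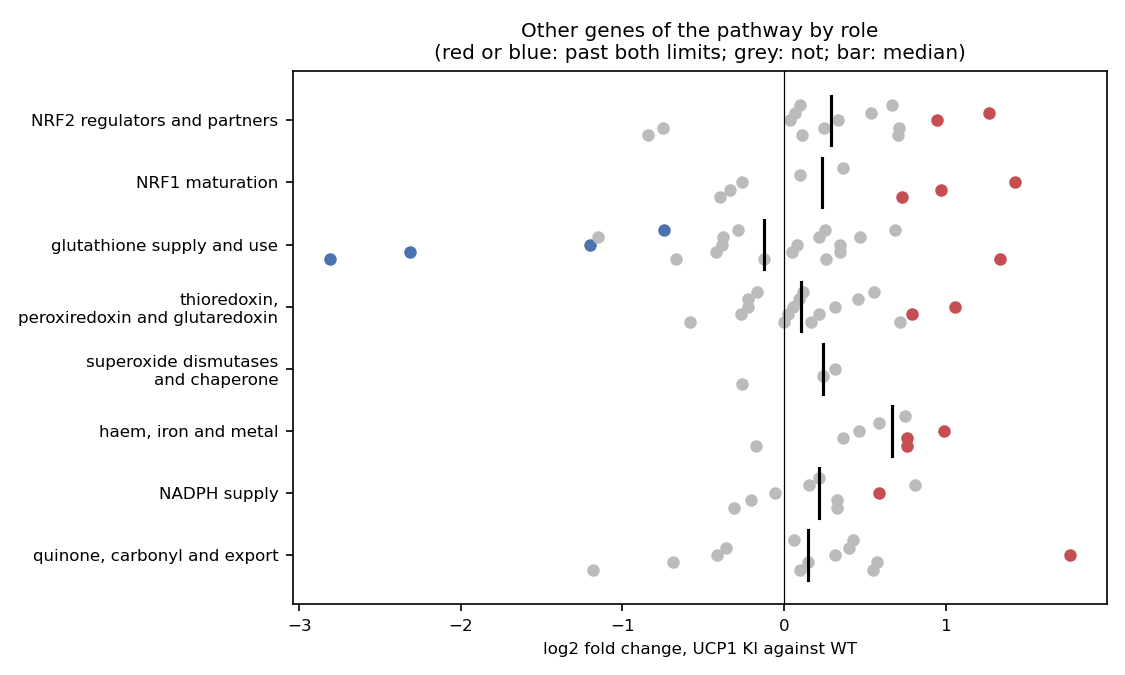
Log2 fold change, UCP1 KI against WT, of the 94 other pathway genes tested, by role, with the median of each role as a bar. Genes past both limits are red (13 higher) or blue (4 lower), and the 4 lower genes, of which 2 did not pass with library size only, belong to glutathione supply and use.

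Among regulators and partners of NRF2, 2 of 14 genes rose, *DPP3* and *GSK3B*, and none fell, beside 3.84% of all genes higher and 4.34% lower. The share of this role without overlap between the groups was 7.14%, beside 15.3% of all genes. *DPP3*, a peptidase that binds KEAP1 in competition with NRF2, was at 13.3, 16.9 and 18.1 CPM in KI animals and at 6.09, 5.55 and 8.41 CPM in WT animals. The groups were well apart, with a log2 fold change of 1.27 (SE 0.27, adjusted p = 0.460 from edgeR), and the call held with each pig left out. *GSK3B*, a kinase that marks NRF2 for degradation independently of KEAP1, was at 27.0, 54.2 and 32.8 CPM against 28.45, 15.0 and 15.8 CPM, a log2 fold change of 0.94 with overlapping groups. *SQSTM1*, which encodes the autophagy receptor p62 that traps KEAP1, was at 645, 787 and 1349 CPM against 367, 507 and 823.5 CPM. Its log2 fold change of 0.71 (SE 0.42) did not pass the limits, and passed with library size only, in the blocked fit and without WT3 (unadjusted p of 0.0425, 0.0455 and 0.0429 by edgeR).

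Of 8 tested genes that handle NRF1, in its release from the endoplasmic reticulum, its processing or its degradation, 3 rose, beside 3.84% of all genes, and none fell. *VCP*, the ATPase that pulls NRF1 from the membrane, was at 207.5, 284.5 and 387.5 CPM in KI animals and at 134, 167 and 147 CPM in WT animals, a log2 fold change of 0.97 (SE 0.29). *UBXN4*, a membrane partner of VCP, was at 64.2, 86.7 and 122 CPM against 37.96, 39.3 and 24.1 CPM, a log2 fold change of 1.43 (SE 0.32). *HERPUD1*, a component of the same degradation machinery, was at 81.4, 105 and 83.3 CPM against 41.0, 54.8 and 67.1 CPM, a log2 fold change of 0.73 (SE 0.26). All 3 genes were without overlap between the groups, as were 7.59% of all genes in this direction, and *VCP* and *UBXN4* were called whichever pig was left out. Proteasome subunits, the best known targets of NRF1, had 30 of 30 tested genes above 0, 13 of them past both limits beside 8.19% of all genes, and a median log2 fold change of 0.69. The 13 became 1 of 30 without KI3 or WT2, 2 without WT1 and 3 without KI2, beside 8.33%, 5.19%, 7.84% and 4.92% of all genes. They became 15 without KI1, 16 without WT3 and 22 with library size only, beside 6.74%, 1541 of 13864 genes and 8.39%.

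Glutathione supply and use was the role whose genes moved both ways. Of 21 tested genes, 1 was higher and 4 were lower, beside 3.84% and 4.34% of all genes. The 4 include *GSTM3*, whose call is qualified below. The median log2 fold change of this role was -0.12 (0.12 with library size only). *GSS*, glutathione synthetase, the enzyme of the second step, was at 2.85, 2.47 and 3.02 CPM in KI animals and at 22.5, 16.25 and 2.84 CPM in WT animals. WT3 thus stood with the KI animals and apart from the other WT animals, with 85 counts against 815 and 445. The log2 fold change was -2.32 (SE 0.66, adjusted p = 0.583 from edgeR), and *GSS* was past both limits whichever pig was left out, from -2.80 without WT3 to -1.80 without WT1. The exact permutation test, which sees the overlap, gave p = 0.3.

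*SLC3A2*, the heavy chain shared by several amino acid transporters including the cystine importer, rose, at 76.0, 118 and 165 CPM against 23.7, 31.6 and 87.4 CPM. Its log2 fold change of 1.33 (SE 0.53) was 2.12 without WT3, and missed the p limit without KI2, KI3, WT1 or WT2 (unadjusted p between 0.0641 and 0.113 from edgeR). *GSTA4*, a transferase for the lipid aldehyde hydroxynonenal, fell, from 3.27 ± 1.16 CPM (SD, n = 3) to 1.42 ± 0.211 CPM (SD, n = 3), or -1.20 on the log2 scale (SE 0.38). *GPX8*, a peroxidase of the endoplasmic reticulum, was at 21.2, 15.4 and 19.5 CPM against 21.5, 36.1 and 36.1 CPM, a log2 fold change of -0.74. With library size only, *GSTA4* and *GPX8* did not pass, at -0.9985 and -0.46 on the log2 scale. *GSTM3*, a further transferase, had counts of 2, 0 and 10 in KI animals and 23, 17 and 35 in WT animals. It passed the filter on low counts through the WT animals, as 1 of 3 KI animals was above the 0.306 CPM that the filter asks of 3 libraries, so its call is no independent support for a difference. Without it, 16 of 93 pathway genes were past both limits (17.2%), 13 higher and 3 lower. Its fitted log2 fold change of -2.81 (SE 1.01) rests on few counts, and was -4.54 without KI3. The part of reads shared with related transferase genes was not tested. The summed level of 7 fibroblast markers (of 8 listed) was lower in KI animals, 240.5 to 387 CPM against 596.5 to 959 CPM in WT animals, and 3 of 7, *COL1A1*, *COL3A1* and *LUM*, passed both limits, lower. Without the collagens *COL1A1* and *COL3A1* the sums of the other 5 overlapped, at 153 to 163 CPM against 162 to 227 CPM. Their part in the lower genes was not tested.

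Of 18 genes of the thioredoxin, peroxiredoxin and glutaredoxin systems, 2 rose and none fell, a share near the 8.19% of all genes. *SRXN1*, sulfiredoxin, which repairs overoxidized peroxiredoxins, was at 30.85, 27.2 and 15.15 CPM in KI animals and at 13.3, 13.7 and 8.14 CPM in WT animals, a log2 fold change of 1.06 (SE 0.35). *GLRX5*, a mitochondrial glutaredoxin of iron-sulfur cluster assembly, was at 34.0, 24.2 and 29.3 CPM against 17.1, 13.9 and 19.6 CPM, a log2 fold change of 0.79 (SE 0.25). Neither overlapped between the groups, and the share of this role without overlap, 16.7%, was near the 15.3% of all genes. Of the other superoxide dismutase genes, *SOD1*, of the cytosol, and *SOD3*, which is secreted, had log2 fold changes of 0.24 and -0.26 (0.04 with library size only) with overlapping groups. *CCS*, the copper chaperone of SOD1, had the largest change of its role, 0.31 (SE 0.24), and 0 of these 3 genes passed the limits (0 had an unadjusted p under 0.05, by edgeR).

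Genes of haem, iron and metal handling had the highest median of the roles, 0.67 over 8 genes. Of these, 3 rose, beside 3.84% of all genes. *SLC48A1*, a haem transporter, was at 33.7, 39.0 and 40.3 CPM in KI animals and at 23.5, 17.9 and 25.2 CPM in WT animals, a log2 fold change of 0.76 (SE 0.23). *FECH*, ferrochelatase, the last enzyme of haem synthesis, was at 4.82, 4.01 and 7.26 CPM against 2.70, 2.45 and 2.97 CPM, a log2 fold change of 0.99 (SE 0.32). *ABCB6*, a porphyrin transporter, was at 12.1, 12.6 and 22.1 CPM against 7.88, 9.57 and 10.1 CPM, a log2 fold change of 0.76 (SE 0.31). All 3 were without overlap between the groups, as were 7.59% of all genes in this direction. The summed red blood cell markers given above were lower in KI animals, and the part of these cells in these genes was not tested. *HMOX2*, the constitutive haem oxygenase, was at 56.0, 81.2 and 96.5 CPM against 49.3, 41.7 and 64.3 CPM, and its log2 fold change of 0.59 (SE 0.29) did not pass the limits, and passed with library size only and without KI1 or WT3 (unadjusted p of 0.0455, 0.0375 and 0.0439 by edgeR).

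Among 9 genes that supply NADPH, the reductant of these systems, *TALDO1*, transaldolase of the pentose phosphate pathway, rose, from 40.8 ± 1.67 CPM (SD, n = 3) in WT animals to 61.1 ± 8.94 CPM (SD, n = 3), or 0.58 on the log2 scale (SE 0.22). The largest change of this role, 0.81 (SE 0.36) for malic enzyme *ME1*, did not pass the limits (unadjusted p = 0.0567 by edgeR). It passed by DESeq2 (unadjusted p = 0.0487), with library size only, on all genes with any count, in the blocked fit (unadjusted p = 0.00881 by edgeR), and without KI1 or WT3. Of 13 genes of quinone and carbonyl reduction and of export, 1 passed both limits, a share (7.69%) near the 8.19% of all genes. *EPHX1*, the microsomal epoxide hydrolase, was this gene, and rose. It was at 13.6, 14.2 and 24.7 CPM in KI animals and at 8.88, 3.29 and 3.20 CPM in WT animals, without overlap. Fitted over all animals, *EPHX1* had a log2 fold change of 1.77 (SE 0.48, adjusted p = 0.583 from edgeR), which was 2.42 without WT1.

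**Figure D4:**
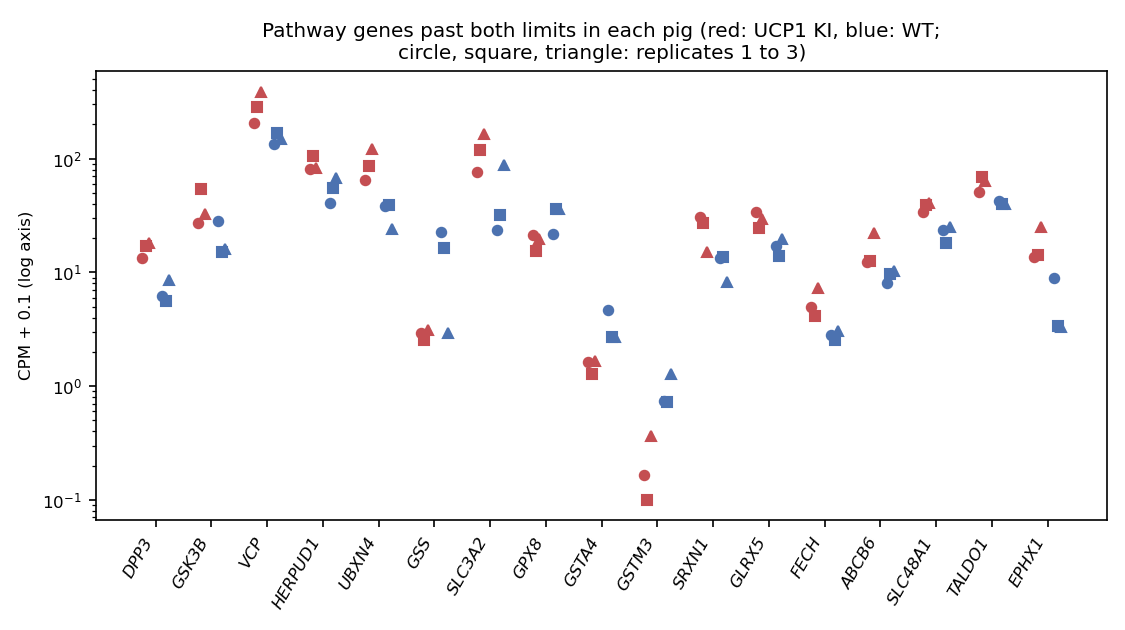
CPM + 0.1 on a log axis of the 17 pathway genes past both limits, in each pig (red for UCP1 KI, blue for WT). WT3 (blue triangle) lies among the KI animals for *GSS*, and the groups also overlap for *GSK3B* and *SLC3A2*.

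Of the 17 called pathway genes, 7 passed both limits with each pig left out, namely *DPP3*, *VCP*, *UBXN4*, *GSS*, *GSTA4*, *SLC48A1* and *EPHX1* (41.2%, beside 26.9% of the 1097 genes called over the whole table). Without WT2, 7 of the 17 missed the limits, *ABCB6*, *GLRX5*, *GPX8*, *GSK3B*, *HERPUD1*, *SLC3A2* and *TALDO1*. Without KI2 the 6 lost were *GPX8*, *GSK3B*, *HERPUD1*, *SLC3A2*, *SRXN1* and *TALDO1*, and without WT3 they were *ABCB6*, *GPX8*, *GSK3B*, *GSTM3*, *SRXN1* and *TALDO1*. Leaving out KI3 lost *ABCB6*, *FECH*, *GPX8*, *SLC3A2* and *TALDO1*, leaving out KI1 lost *GLRX5*, *GSTM3* and *SRXN1*, and leaving out WT1 lost *ABCB6*, *HERPUD1* and *SLC3A2*. All 30 of these values kept their sign, with sizes from 0.43 (*ABCB6* without KI3) to 2.56 (*GSTM3* without KI1) on the log2 scale and unadjusted p from 0.0504 to 0.155 by edgeR.

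The summed markers of adipocytes and endothelial cells overlapped between the groups, at 158 to 205 CPM and 381 to 691.5 CPM in KI animals against 123 to 330.5 CPM and 354 to 643 CPM in WT animals. Of 6 adipocyte markers tested, *LIPE* passed both limits, higher in KI animals (unadjusted p = 0.0126 by edgeR). *PLIN4*, with a log2 fold change of 0.49, did not pass, and *ADIPOQ*, *FABP4*, *PLIN1* and *CIDEC* had log2 fold changes below 0, from -1.26 to -0.80, that did not pass. Of 7 endothelial markers tested, *TEK* passed, higher (unadjusted p = 0.00123 by edgeR). For slow and fast fibre genes the sums were 6936 to 12330 CPM and 14510 to 44580 CPM in KI animals and 4170 to 17180 CPM and 29000 to 71540 CPM in WT animals, also overlapping. The Y-linked *KDM5D* was counted between 30 and 71 times in every pig.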

How the data were processed

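RNA of longissimus dorsi from 3 UCP1 KI and 3 WT pigs was extracted with TRIzol, made into mRNA libraries and sequenced in paired ends on a HiSeq XTen. The authors trimmed reads with Trimmomatic 0.36 and mapped them with HISAT2 2.0, and the submitters' processing notes name the build Sscrofa11.1, FastQC 0.11.2, StringTie 1.3.3b and DESeq2 1.12.4. What the authors deposited is 1 table of raw counts, whole reads per Ensembl gene and pig with no normalization, all columns of which were used. The counting program, annotation release and strand setting are not given in the sources used here.

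The model was edgeR 4.0.16 in R 4.3.3, with filterByExpr, TMM factors, condition as the only term and the two-sided quasi-likelihood F test over 13402 genes, with Benjamini-Hochberg adjustment. The standard error is the size of the log2 fold change over the root of F. The code was tested on simulated data. Exact permutation tests used log2(CPM + 1), or log2 of a count ratio, over all assignments of the 6 pigs. Symbols came from an Ensembl name table (14864 of 30476 identifiers) and gene spans from RefSeq for Sscrofa11.1. Gene lengths of transcripts were not used here, so levels are not compared between genes.

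The genes, lists and tests were chosen with earlier results of these data known. All 10 listed genes are described. Of the pathway lists, the genes past both limits and the largest change of each role were named, and *SQSTM1*, *SOD1*, *SOD3* and *HMOX2* were named for their role after their values were seen. Nothing states that the pigs are separate litters, and p values measure the spread between these pigs. Alternatives were median-of-ratios factors, library size only, DESeq2 1.42.0, other filters, the replicate number as a block, and each pig left out.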

Additional observations from a re-analysis of the deposited data

How the results depend on the processing

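The number of the 9 genes past both limits, 2, was 4 with library size only (*KEAP1* and *TXNRD1* in addition), 0 at an adjusted p under 0.05, and between 1 and 4 with each pig left out. The 17 pathway genes became 0 at an adjusted p under 0.05 by edgeR, and between 10 and 19 with each pig left out. DESeq2 on the same genes left 4 of 94 with an adjusted p under 0.05. The median log2 fold change of the 9 genes, 0.47, was 0.73 with library size only and between 0.27 and 0.70 with each pig left out. Less the median shift of 0.255 of all genes under library size only, *SOD2* stood at 1.01, *NFE2L1* at 0.78 and *NFE2L2* at -0.19. Signs changed for *NFE2L2* (0.062 with library size only, and -0.81 to 0.38 with each pig left out), for *NQO1* (-0.13 to 0.29 with each pig left out) and for *CAT* (-0.054 with the replicate block, and -0.53 to 0.34 with each pig left out). The cause of these changes was not tested. Of 117 fits of single genes, 101 kept direction and side of the limits. Same-numbered pigs of the groups deviated together with correlations across genes of 0.00, 0.09 and 0.28, so they share a number and no shown pairing. With the replicate number as a block in edgeR, 2 of the 9 genes (*SOD2* and *KEAP1*, whose unadjusted p was 0.0269, and not *NFE2L1*, at 0.80 with an unadjusted p of 0.0651) and 20 pathway genes passed the limits, without *GPX8* and *GSK3B* of the 17 (unadjusted p of 0.0581 and 0.061 by edgeR). With 3 pigs a group, the 95% intervals of most of the 9 genes span 0 and changes past the fold limit.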

Other observations

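Some low-count genes of the pathway did not pass the filter on low counts and were tested in the fits on all genes with any count alone. *SLC7A11*, the light chain of the cystine importer and partner of *SLC3A2*, had 0, 6 and 0 counts in KI1 to KI3 and 8, 7 and 10 counts in WT1 to WT3. Every WT animal was above every KI animal, as for 7.69% of all genes tested, but KI2 and WT2 were nearly level in counts. Fitted on all genes with any count, its log2 fold change was -2.17 (unadjusted p = 0.183 by edgeR and 0.17 by DESeq2), which did not pass the limits. *ABCC2*, an export pump, had 7, 15 and 0 counts in KI animals against 2, 3 and 4 in WT animals. *MT3*, a metallothionein, had counts of 1, 1 and 5 against 5, 1 and 8. In the same edgeR fit the unadjusted p was 0.457 for *ABCC2* and 0.429 for *MT3*, so that no difference was detected at these low counts.

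*GSS* passed an adjusted p under 0.05 in DESeq2 on the same genes (adjusted p = 0.0385) although WT3, at 2.84 CPM, lay between the KI animals.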
